A study of Mus musculus with 6 samples.

Results

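The *Sall* (spalt-like) family of zinc finger transcription factors comprises *Sall1*, *Sall2*, *Sall3* and *Sall4* in the mouse. Its members were taken by gene name from the deposited count table, and all 4 of 4 names were found among the 31613 genes of the table. Each of the 4 also passed the filter on low counts that left 16519 genes for testing.

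The data are bulk RNA-seq of dental papilla cells (mDPCs) of the mouse molar, from which odontoblasts and pulp arise, taken at postnatal day 6. Libraries from 3 Dmp1-Cre;Setd2fl/fl samples were compared with 3 control libraries to ask what changes after loss of SETD2, the methyltransferase that trimethylates lysine 36 of histone H3. Cre was driven by *Dmp1*, a gene of the odontoblast layer, so the cells of the papilla away from that layer need not have recombined. The control mice are described in the methods as littermates with floxed *Setd2* and no Cre, whereas the labels call their genotype wild type. Each library held RNA pooled from 3 biological replicates, the strain background was C57BL/6J, and the supplement of the study lists fewer mice of each genotype for this collection than separate animals for every pooled replicate would need, so pools may have shared mice. P-values therefore measure the spread between libraries of pooled RNA.

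Depth ranged over the libraries from 18557647 to 19210750 counts. The whole-gene count of *Setd2* was 102, 98.5 and 96.0 CPM (counts scaled to a common library size, with TMM factors) in Dmp1-Cre;Setd2fl/fl and 98.0, 96.5 and 92.0 CPM in control libraries, and it does not check the genotype because a count over the whole gene includes exons outside the deleted part. The 11 tested markers of the dental papilla mesenchyme were present in all 6 libraries and summed to 1672, 1832 and 1594 CPM in Dmp1-Cre;Setd2fl/fl libraries and to 1507, 1598 and 1684 CPM in control libraries. The LIM homeobox gene *Lhx8* was the only marker of that list called (log2 fold change -0.62), beside 2.71% lower of all genes. Its call was lost without replicate 3 of both groups, without Dmp1-Cre;Setd2fl/fl replicate 2, without control replicate 3 and with voom quality weights (-0.38). Transcripts of the dental epithelium were also present. The 11 epithelial markers summed to 7171, 2247 and 50140 CPM in Dmp1-Cre;Setd2fl/fl libraries and to 7317, 2675 and 30340 CPM in control libraries, so replicate 3 stood apart in both groups. Values of the members and of the odontoblast markers are therefore also given without these 2 libraries.

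SALL proteins carry pairs of C2H2 zinc fingers, bind AT-rich DNA and repress transcription. A short motif at the amino terminus of SALL proteins recruits NuRD, a complex that joins a chromatin remodeller to histone deacetylases. In development the family is best known from kidney (*Sall1*), limb and heart (*Sall4* and *Sall1*), palate and cranial nerves (*Sall3*) and the closing of the optic fissure (*Sall2*), and *SALL1* and *SALL4* are mutated in human malformation syndromes. SALL1 has been reported to act with RUNX2 in the commitment of mouse dental papilla cells to the odontoblast lineage. In the gene ontology column of the deposited table, 5 terms were shared by all 4 members, each of them on DNA binding, transcription, the nucleus or metal ions. *Sall1* and *Sall3* shared the terms for forelimb and hindlimb morphogenesis and for negative regulation of smoothened signalling.

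The start of the coding sequence is shown for *Sall4* and *Sall2* because it encodes the NuRD-recruiting motif and separates 2 forms of *Sall2* that a gene-level count merges. The sequences are the first 36 coding bases in GENCODE vM39, read 5′ to 3′ on the minus strand of GRCm39. Capitals mark bases that are the same in Sall4-201 and Sall2-201.
Sall4-201, chr2:168608914-168608949: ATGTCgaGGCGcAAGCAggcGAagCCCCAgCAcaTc
Sall2-201, chr14:52565597-52565632: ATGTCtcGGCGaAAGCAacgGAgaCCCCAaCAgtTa
Sall2-202, chr14:52553531-52553566: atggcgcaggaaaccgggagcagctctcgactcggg
Sall4-201 and Sall2-201 had 24 of 36 bases in common, and 8 of the 12 encoded residues were the same. The other *Sall2* start, which belongs to the transcript marked canonical and comes from another first exon, shared 13 of 36 bases and 1 of 12 residues with Sall4-201. The shared start was present in 3 of 4 *Sall4* transcripts and 1 of 3 *Sall2* transcripts with an annotated start. A *Sall2* count may therefore include transcripts with and without the motif, and the data cannot say in what proportion.

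*Sall1*, the member with a reported role in odontoblast commitment and an essential factor of the kidney mesenchyme, was lower in Dmp1-Cre;Setd2fl/fl than in control mDPCs. *Sall2*, *Sall3* and *Sall4* did not pass the thresholds. The thresholds are those of the study, an unadjusted p under 0.05 with an absolute log2 fold change of 0.58 or more. At them, 448 of the 16519 genes tested were lower (2.71%) and 181 were higher (1.1%), so 1 lower member of 4 stands beside a background of 2.71%. The study had named *Sall1* as lower from these same libraries, and the members were chosen with earlier results of these data known. These shares are therefore a description and cannot show enrichment. After Benjamini-Hochberg adjustment, edgeR called 0 of 16519 genes (0%) at 0.05. At an unadjusted p under 0.05 it gave 729 lower and 523 higher genes, and at an adjusted p under 0.05 DESeq2 called 117 lower and 24 higher and limma voom with quality weights 988 and 397. More genes passed the study thresholds in edgeR fits without Dmp1-Cre;Setd2fl/fl replicate 3 (6.88% lower, 4.01% higher), without replicate 3 of both groups (7.55% lower, 4.49% higher) and with the replicate number as a block (4.37% lower, 2.05% higher).

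**Figure D1:**
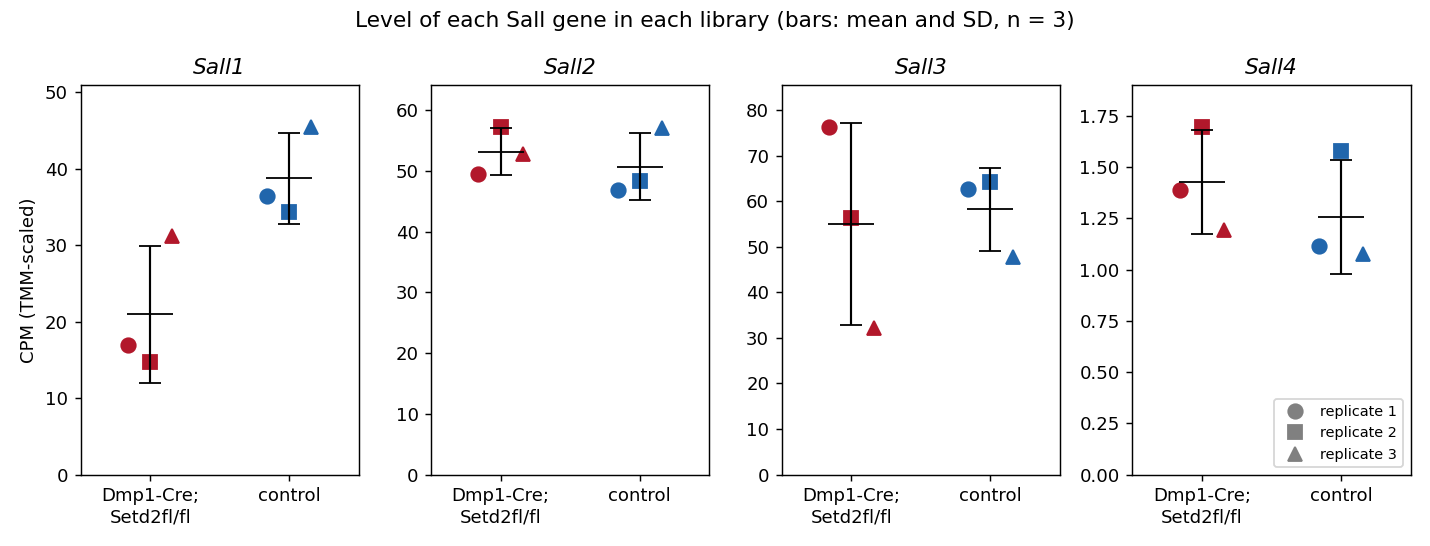
Level of each *Sall* gene in CPM (vertical axes, each starting at 0) in the 3 Dmp1-Cre;Setd2fl/fl libraries (red, left) and the 3 control libraries (blue, right), with the mean and SD as bars and the replicate number as the symbol. The *Sall1* values of the groups do not overlap (14.7 to 31.3 against 34.4 to 45.5 CPM), while those of *Sall2*, *Sall3* and *Sall4* do.

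*Sall1* (ENSMUSG00000031665) lies on the minus strand of chromosome 8, from 89027235 to 89044162 in the deposited coordinates, which fit GRCm38. It had 355, 277 and 576 counts in Dmp1-Cre;Setd2fl/fl replicates 1, 2 and 3, against 686, 653 and 803 counts in control replicates 1, 2 and 3. In scaled units these were 17.0, 14.7 and 31.3 CPM in Dmp1-Cre;Setd2fl/fl libraries and 36.4, 34.4 and 45.5 CPM in control libraries. Every Dmp1-Cre;Setd2fl/fl value lay below every control value, as was the case in one direction or the other for 15.2% of all genes tested, and Dmp1-Cre;Setd2fl/fl replicate 3 lay nearest to the controls. In CPM without TMM factors, the 95% exact Poisson interval of Dmp1-Cre;Setd2fl/fl replicate 3 ran from 27.7 to 32.6 and that of control replicate 2 from 31.4 to 36.7. These intervals, which cover counting error only, overlapped, while those of every other pair of libraries between the groups did not.

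The log2 fold change of *Sall1* was -0.89 (SE 0.29), which is 54.1% of the control level, with a 95% interval from -1.58 to -0.19. By edgeR its unadjusted p was 0.0199 and its adjusted p was 0.626. With the replicate number as a block, it was -0.95 on the log2 scale and the adjusted p was 0.0306 by edgeR, where 0.799% of genes were lower at that threshold. The log2 ratio between libraries of the same number was -1.10, -1.22 and -0.54. The labels do not say what the numbers mark, so pairing by number is an assumption of the block and of these ratios. In deviations from group means over all genes tested, Dmp1-Cre;Setd2fl/fl replicate 1 correlated as well with control replicate 2 (r = 0.455) as with control replicate 1 (r = 0.453). When Dmp1-Cre;Setd2fl/fl replicate 3 was left out, the log2 fold change was -1.29 (adjusted p = 0.00692 by edgeR, where 2.65% of genes passed 0.05 in that direction), and without replicate 3 of both groups it was -1.15 (adjusted p = 0.000909 by edgeR, where 4.48% did). Both fits leave out the Dmp1-Cre;Setd2fl/fl library nearest to the controls, and the last compares 2 libraries with 2. Its control libraries, replicates 1 and 2, were the pair most alike in counts within a group. The call was lost when Dmp1-Cre;Setd2fl/fl replicate 1 (-0.75, adjusted p = 0.765 by edgeR), Dmp1-Cre;Setd2fl/fl replicate 2 (-0.69, adjusted p = 1 by edgeR) or control replicate 3 (-0.76, adjusted p = 0.639 by edgeR) was left out, where the unadjusted p was above 0.05.

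Genes of the odontoblast were lower in the same libraries as *Sall1*. Of 12 odontoblast markers tested, 8 were lower and 0 were higher, beside 2.71% lower of all genes. Their median log2 fold change was -1.30 against 0.02 over all genes tested. They include *Phex* (-3.08), a peptidase of mineralizing cells, *Nes* (-1.21), the intermediate filament nestin, and *Enpp1* (-1.05), which produces pyrophosphate, while *Sp7* (-0.45), a transcription factor of the odontoblast and osteoblast lineages, missed the fold threshold. The count of lower markers was 3 without Dmp1-Cre;Setd2fl/fl replicate 1, 4 without Dmp1-Cre;Setd2fl/fl replicate 2, 5 without control replicate 2 or 3, 5 with the replicate block and 4 with no filter on low counts. Without replicate 3 of both groups it was 8, all 8 at an edgeR adjusted p under 0.05 beside 4.48% of all genes, and the median was -1.60. The 12 markers summed to 6304, 4361 and 37030 CPM in Dmp1-Cre;Setd2fl/fl libraries, against 71440, 73780 and 81610 CPM in control libraries. *Col1a1* alone made up most of each sum, at 4854.5, 3266.8 and 29999 CPM in Dmp1-Cre;Setd2fl/fl and 54159, 56370 and 64929 CPM in control libraries. The median marker lay, against the control mean, at -1.53, -1.95 and -0.55 on the log2 scale in Dmp1-Cre;Setd2fl/fl libraries, and at -0.06, -0.06 and 0.11 in control libraries. *Sall1* lay at -1.18, -1.38 and -0.30 in Dmp1-Cre;Setd2fl/fl libraries on that scale, and at -0.08, -0.16 and 0.24 in control libraries. Both thus had their lowest value in Dmp1-Cre;Setd2fl/fl replicate 2 and their highest in control replicate 3. *Sall1* and every called marker but *Nes* are genes that the study named as lower from these same libraries. The direction of the list in these libraries is therefore not independent evidence. In separate samples the study also reported lower *Col1a1*, *Phex*, *Dspp*, *Dmp1* and *Enpp1* by RT-qPCR of the odontoblast layer, taken by laser capture. By immunofluorescence it reported less collagen I, DSPP and DMP1 in that layer. *Sall1* was not among the genes of that RT-qPCR. In bulk RNA, fewer cells of a type and less RNA of a gene per cell cannot be told apart.

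**Figure D2:**
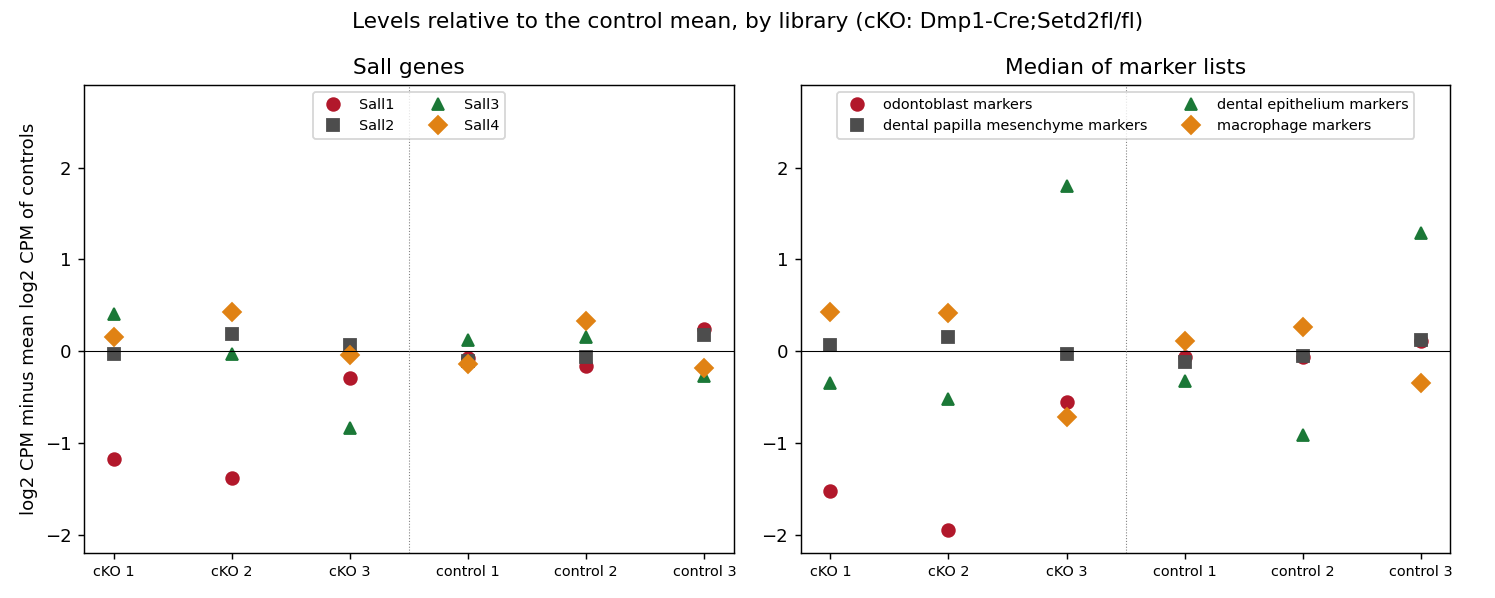
Log2 CPM minus the mean log2 CPM of the controls (vertical axis) for the 4 *Sall* genes (left panel) and for the median gene of 4 marker lists (right panel), by library (horizontal axis), with Dmp1-Cre;Setd2fl/fl (cKO) left of the dotted line and control right of it. *Sall1* (-1.18, -1.38 and -0.30 in cKO) and the odontoblast markers (-1.53, -1.95 and -0.55 in cKO) lie below 0 in all 3 cKO libraries, while *Sall3* is lowest and the epithelial markers are highest in replicate 3 of each group.

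*Sall1* also defines microglia among the macrophages of the mouse, so the markers of these cells were read. Of 9 macrophage and 6 microglia markers tested, 0 were lower and 0 were higher, beside 2.71% lower and 1.1% higher of all genes. When Dmp1-Cre;Setd2fl/fl replicate 3 was left out, however, 4 macrophage markers were higher, and 1 microglia marker was lower and 1 was higher. In that fit 4.01% of all genes were higher and 6.88% lower. *P2ry12*, a purinergic receptor of microglia, was at 8.04, 10.97 and 3.26 CPM in Dmp1-Cre;Setd2fl/fl libraries and at 7.11, 6.68 and 4.48 CPM in control libraries, and *Siglech* was near 0 (0.29, 0.69 and 1.14 CPM in Dmp1-Cre;Setd2fl/fl, 1.75, 1.42 and 1.02 CPM in control). The macrophage markers summed to 1265, 1440 and 575.9 CPM in Dmp1-Cre;Setd2fl/fl libraries and to 971.7, 1089 and 757.8 CPM in control libraries. The part of any cell type in the *Sall1* values was not tested.

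Among the genes whose pattern over the 6 libraries was most like that of *Sall1* were *Smox*, spermine oxidase (Pearson r = 0.9993 in log2 CPM), *Copz2*, a coatomer subunit (r = 0.9992), *Slc39a13*, a zinc transporter (r = 0.9978), and *Chst11*, a chondroitin sulfotransferase (r = 0.9975). They were chosen for this likeness among 15045 genes of at least 1 CPM on average, 961 of which had r above 0.9 with *Sall1*, and the 6 points share depth and cell makeup. *Smox* was at 70.5, 61.2 and 146.7 CPM in Dmp1-Cre;Setd2fl/fl libraries and at 168.3, 160.7 and 230.1 CPM in control libraries. These 4 genes were called lower, which is not independent of their choice by likeness to *Sall1*. Around the locus, the nearest tested protein-coding genes were not called. *Cyld*, a deubiquitinase gene 275 kb away, had a log2 fold change of -0.01, and *Tox3*, an HMG-box gene 1200 kb away, of -0.09. GENCODE vM39 places *Gm3134* over *Sall1* on the opposite strand, and because reads were counted without regard to strand, reads from the 2 genes cannot be told apart.

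*Sall2* (ENSMUSG00000049532), the most divergent family member, which is expressed in quiescent and differentiating cells and binds the promoter of the cell cycle inhibitor *CDKN1A* in human cells, did not pass the test. It lies on the minus strand of chromosome 14, from 52311172 to 52328762. Its level was 49.5, 57.3 and 52.7 CPM in Dmp1-Cre;Setd2fl/fl libraries and 46.8, 48.3 and 57.0 CPM in control libraries. The groups overlapped, and the log2 fold change was 0.07 (SE 0.12; edgeR adjusted p = 0.895). The 95% interval, from 0.863-fold to 1.27-fold of control, was the narrowest of the family, and *Sall2* varied least between libraries of a group (biological coefficient of variation 14.4%, against 26.9% for *Sall1*, 27.4% for *Sall3* and 25.3% in common over all genes). Without replicate 3 of both groups the log2 fold change was 0.17 (edgeR adjusted p = 0.391).

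The 5 genes most like *Sall2* were *Drg2*, a GTP-binding protein (r = 0.9989 over 6 libraries), *Rnf149*, *Eif3l*, *Ctnnb1*, which encodes β-catenin, and *Psmb5*, a proteasome subunit (r = 0.9845), and 0 of the 5 were called. Its nearest neighbour *Mettl3*, the RNA adenosine methyltransferase 6.04 kb away, had a log2 fold change of -0.25 and *Dad1*, 1910 kb away, of -0.15, and neither was called. GENCODE vM39 places *Gm53857* over *Sall2* on the opposite strand, with the same limit on the counts.

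*Sall3* (ENSMUSG00000024565), needed for the palate and cranial nerves of the mouse, varied between libraries of the same genotype. It lies on the minus strand of chromosome 18, from 80966376 to 80986578. It was at 76.3, 56.3 and 32.2 CPM in Dmp1-Cre;Setd2fl/fl replicates 1, 2 and 3, against 62.7, 64.3 and 47.7 CPM in control replicates 1, 2 and 3. The Dmp1-Cre;Setd2fl/fl values spanned the control values on both sides, and replicate 3 was the lowest library of each group. The log2 fold change was -0.08 (SE 0.30; edgeR adjusted p = 0.955), with a 95% interval from 0.574-fold to 1.55-fold of control. Its sign was not fixed, since the value was 0.19 without Dmp1-Cre;Setd2fl/fl replicate 3, 0.07 without replicate 3 of both groups and 0.15 with voom quality weights.

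Markers of other cell types also set replicate 3 apart in both groups. The library numbered 3, where *Sall3* was lowest, had the highest sum of the 11 epithelial markers in each group. It also had the highest sum of the 8 endothelial markers (376.5, 393.6 and 981.4 CPM in Dmp1-Cre;Setd2fl/fl, 361.6, 406.5 and 610.8 CPM in control) and the lowest sum of the 9 macrophage markers in each group. Between replicates 1 and 2 of Dmp1-Cre;Setd2fl/fl the epithelial sum and *Sall3* were both lower in replicate 2. Among the epithelial and endothelial markers, and among 7 mural and 5 Schwann cell markers, 0 were called by edgeR on all 6 libraries without a block. Of all genes, 2.71% were lower and 1.1% higher there. Voom quality weights called *Epcam* lower (-1.96), and the replicate block called *Shh* higher (0.84) and *Cspg4* lower (-0.59). Without replicate 3 of both groups, 1 epithelial marker was lower and 1 higher, and 1 mural marker was lower. In that fit 7.55% of all genes were lower and 4.49% higher. Leaving out single libraries gave at most 1 epithelial call in each direction, 1 higher endothelial and 1 lower mural marker. The part of these cell types in the spread of *Sall3* was not tested. The genes most like *Sall3* were *Daam2*, a formin of Wnt signalling (r = 0.996 over 6 libraries), *Cacna1h*, a T-type calcium channel (r = 0.9954), *Syt6*, a synaptotagmin (r = 0.9921), *Tenm1*, a teneurin (r = 0.9907), and *Smarca2*, the BRM remodelling ATPase (r = 0.9891). *Cacna1h*, for example, was at 76.8, 52.6 and 26.3 CPM in Dmp1-Cre;Setd2fl/fl libraries and at 62.8, 63.6 and 39.9 CPM in control libraries. *Atp9b*, 32.3 kb from *Sall3*, had a log2 fold change of -0.14 and *Mbp*, 1490 kb away, of 0.13, and neither was called. *Gm27238*, which overlaps *Sall3* on the same strand, had 2 to 7 counts per library.

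*Sall4* (ENSMUSG00000027547), a factor of pluripotent cells, germ cells and the early limb bud whose protein is degraded in the presence of thalidomide in human cells, was the lowest of the family. It lies on the minus strand of chromosome 2, from 168748332 to 168767943. It had 29, 32 and 22 counts in Dmp1-Cre;Setd2fl/fl libraries, against 21, 30 and 19 counts in control libraries, and these are 1.39, 1.70 and 1.19 CPM in Dmp1-Cre;Setd2fl/fl and 1.11, 1.58 and 1.08 CPM in control. The groups overlapped. With a log2 fold change of 0.18 (SE 0.29; edgeR adjusted p = 0.887) the 95% interval ran from 0.701-fold to 1.83-fold of control, so a change of the size seen for *Sall1* in the lower direction lies outside it, whereas an increase of up to 1.83-fold lies inside it. Without replicate 3 of both groups the log2 fold change was 0.20 (edgeR adjusted p = 0.734). Only 12.3% of the genes tested had a lower mean level, compared with 58.7% for *Sall1*, 73% for *Sall2* and 75.4% for *Sall3*.

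The genes most like *Sall4* over the 6 libraries were *Ttc39c* (r = 0.9804), *Gm2981* (r = 0.9768), *Spp1*, which encodes osteopontin (r = 0.9766), *Tnfsf12*, the cytokine TWEAK (r = 0.9736), and *0610040J01Rik* (r = 0.9734), and 0 of them were called. At so few counts these values say little. *Atp9a*, 5.92 kb away, had a log2 fold change of 0.02 and *Zfp64*, 125 kb away, of -0.21, and neither was called. *Gm14261* overlaps *Sall4* on the opposite strand and had 2 to 13 counts per library, beside 19 to 32 counts of *Sall4*.

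Levels of different genes were compared per kilobase of exon. In CPM per kilobase, *Sall2* was at 9.77 ± 0.721 in Dmp1-Cre;Setd2fl/fl and 9.32 ± 1.02 in control libraries (SD, n = 3 each). *Sall3* was at 6.59 ± 2.65 and *Sall1* at 3.08 ± 1.32 in Dmp1-Cre;Setd2fl/fl libraries, against 6.98 ± 1.09 and 5.69 ± 0.872 in control libraries (SD, n = 3 each). *Sall4* was the lowest, at 0.253 ± 0.045 in Dmp1-Cre;Setd2fl/fl and 0.223 ± 0.0497 in control libraries (SD, n = 3 each). The order *Sall2*, *Sall3*, *Sall1*, *Sall4* held for the means of both groups but not in every library. In Dmp1-Cre;Setd2fl/fl replicate 1, *Sall3* (9.15 CPM per kilobase) and *Sall2* (9.10) were level. In replicate 3, *Sall1* was above *Sall3* in both groups, at 4.59 against 3.86 in Dmp1-Cre;Setd2fl/fl and 6.68 against 5.72 in control. *Sall4* was the lowest in all 6 libraries. *Sall2* was above *Sall3* without overlap in control libraries but not in Dmp1-Cre;Setd2fl/fl libraries, and *Sall3* and *Sall1* overlapped in both groups.

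Of the family total per kilobase, *Sall1* made up 11.9%, 10.9% and 25% in Dmp1-Cre;Setd2fl/fl libraries and 24.7%, 23.0% and 28.9% in control libraries. The share of *Sall2* was 43.3%, 53.4% and 52.8% in Dmp1-Cre;Setd2fl/fl libraries, against 39.7%, 40.5% and 45.4% in control libraries. In these shares Dmp1-Cre;Setd2fl/fl replicate 3 lay within the control range for *Sall1* but not for *Sall2*. The CPM of the 4 members summed to 130.5 ± 13.4 in Dmp1-Cre;Setd2fl/fl libraries and 148.9 ± 2.25 in control libraries (SD, n = 3 each), given as a description with no test.

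Whether *Sall1* moved relative to *Sall2* was tested within libraries, which removes the scaling between libraries. The log2 ratio of *Sall1* to *Sall2* was -1.54, -1.96 and -0.75 in Dmp1-Cre;Setd2fl/fl libraries and -0.36, -0.49 and -0.32 in control libraries. All 3 Dmp1-Cre;Setd2fl/fl ratios lay below the controls, with a difference of -1.02 (p = 0.1, two-sided exact permutation test, n = 3 each). This is the smallest p that 3 against 3 libraries allow, and after adjustment over the 6 pairs of members it was 0.6. The ratio of *Sall1* to *Sall4* differed by -1.13 (p = 0.2, two-sided exact permutation test, n = 3 each) and that of *Sall1* to *Sall3* by -0.80 (p = 0.4, two-sided exact permutation test, n = 3 each). The 3 pairs without *Sall1* differed by 0.23 (*Sall2* to *Sall3*), -0.10 (*Sall2* to *Sall4*) and -0.33 (*Sall3* to *Sall4*), with p from 0.4 to 0.7 by the same exact permutation test.

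**Figure D3:**
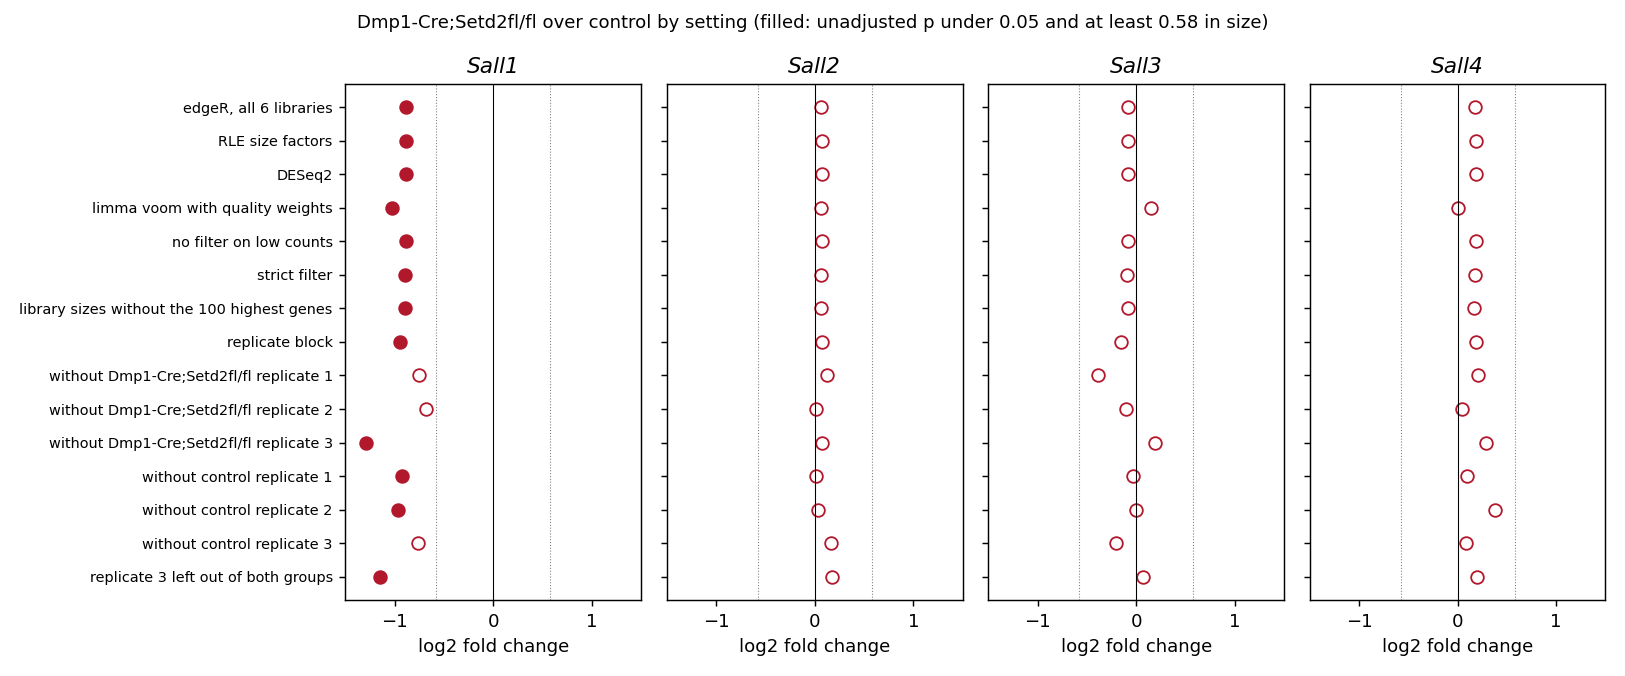
Log2 fold change (horizontal axes, Dmp1-Cre;Setd2fl/fl over control) of each *Sall* gene under each analysis setting (rows), filled where the unadjusted p is under 0.05 and the change is at least 0.58 in size (dotted lines). *Sall1* is negative in every row (-1.29 to -0.69) and open in 3 of them, *Sall2* and *Sall4* are open throughout, and *Sall3* crosses 0.

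Subunits of NuRD, the complex that SALL proteins recruit, were all expressed and did not pass the thresholds. Of 15 subunits tested, 0 were lower and 0 were higher, beside 2.71% lower and 1.1% higher of all genes. The same held under all 14 alternatives, among them the fit without replicate 3 of both groups (7.55% lower and 4.49% higher of all genes). At such shares, 0 of 15 does not set the list apart from all genes. Log2 fold changes ran from -0.33 to 0.28, with a median of 0.08 against 0.02 over all genes. The histone deacetylase *Hdac2* had a log2 fold change of 0.28, the remodelling ATPase *Chd5* of -0.33, the methyl-CpG-binding subunit *Mbd2* of 0.17 and *Mta3* of 0.21. *Mta3* was the 1 subunit whose groups did not overlap, at 49.98, 51.3 and 44.9 CPM in Dmp1-Cre;Setd2fl/fl and 40.4, 43.7 and 42.5 CPM in control libraries, where 15.2% of all genes did not overlap.

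Of 5 other zinc finger factors that recruit NuRD through a like motif, 0 were called here or under any alternative. Beside 2.71% lower and 1.1% higher of all genes, 0 of 5 does not set them apart. The smallest p values were those of *Zfp827*, a telomere-associated factor, at 47.7, 35.8 and 51.8 CPM in Dmp1-Cre;Setd2fl/fl and 59.8, 59.6 and 55.7 CPM in control libraries (log2 fold change -0.37, edgeR adjusted p = 0.648), and of *Zfpm2*, a GATA cofactor, at 17.7, 13.6 and 16.2 CPM in Dmp1-Cre;Setd2fl/fl and 19.6, 18.6 and 22.1 CPM in control libraries (-0.34, adjusted p = 0.665 by edgeR). Neither gene had overlapping groups, as was the case for 15.2% of all genes tested, and both missed the fold threshold. *Bcl11a* had a log2 fold change of 0.22 and *Zfpm1* of 0.01.

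Partners of *Sall1* in the kidney mesenchyme were partly expressed in mDPCs. Of 15 such genes 12 were in the table and 9 were tested, and 0 of the 9 were called here or under any alternative (median log2 fold change 0.13). With 2.71% of all genes lower and 1.1% higher, 0 of 9 does not set this list apart from all genes. *Gdnf*, the ligand that draws out the ureteric bud, was at 40.4, 37.4 and 35.6 CPM in Dmp1-Cre;Setd2fl/fl and 32.3, 32.0 and 30.5 CPM in control libraries (log2 fold change 0.26, edgeR adjusted p = 0.647). Its groups did not overlap, as was the case for 15.2% of all genes tested. *Osr2*, an odd-skipped factor of the tooth and palate mesenchyme, had a log2 fold change of 0.30, the homeobox gene *Six4* of -0.24 and the cofactor gene *Cited1* of 0.38. *Pax2* and *Wt1*, which define the nephron lineage, had 0 to 3 counts per library.

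Among the limb bud partners of *Sall4*, 8 of 9 were in the table and 5 were tested, with 0 lower and 1 higher beside a background of 1.1%, and 2 higher (*Zbtb16* and *Fgf10*) without Dmp1-Cre;Setd2fl/fl replicate 3, without replicate 3 of both groups, with the replicate block and with no filter on low counts. Of all genes, 4.01% were higher without Dmp1-Cre;Setd2fl/fl replicate 3, 4.49% without replicate 3 of both groups and 2.05% with the block. The gene higher in the fit to all 6 libraries was *Zbtb16*, which encodes the repressor PLZF, at 5.64, 11.35 and 0.60 CPM in Dmp1-Cre;Setd2fl/fl and 0.58, 0.68 and 0.34 CPM in control libraries (log2 fold change 3.43, edgeR adjusted p = 0.625). Dmp1-Cre;Setd2fl/fl replicate 3 lay within the control range, and under the stricter filter *Zbtb16* was not tested. The neutrophil markers were high in the same 2 libraries, where the 5 tested summed to 67.1, 133.5 and 4.67 CPM in Dmp1-Cre;Setd2fl/fl and 20.4, 11.7 and 3.46 CPM in control libraries, and their part in the *Zbtb16* values was not tested. Of these 5 markers 2 were higher (*Ngp* and *Camp*) and 0 lower, beside 1.1% higher of all genes. With DESeq2 and with the replicate block 3 were higher, the latter beside 2.05% of all genes. Without replicate 3 of both groups 5 were higher, beside 4.49%, and leaving out single libraries gave 0 to 5. *Fgf10*, a ligand of limb outgrowth, had a log2 fold change of 0.67 (edgeR unadjusted p = 0.0801), *Irx5* of -0.28 and *Irx3* of 0.18.

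The pluripotency partners of *Sall4* were mostly at or near 0. Of 12 genes 11 were in the table and 3 were tested, *Klf4*, *Esrrb* and *Tbx3*. Of these 0 were called, beside 2.71% lower and 1.1% higher of all genes. Without replicate 3 of both groups 1 was lower, beside 7.55% of all genes. *Pou5f1* and *Nanog*, which define pluripotent cells, had 0 to 2 counts per library. *Tbx3*, a T-box gene also expressed in mesenchyme, was at 69.9, 51.3 and 75.9 CPM in Dmp1-Cre;Setd2fl/fl and 94.5, 99.2 and 73.6 CPM in control libraries (log2 fold change -0.44, edgeR adjusted p = 0.655).

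Genes reported in other cells as targets of SALL2 or SALL4 gave 1 call among 7 tested, in the higher direction, beside 1.1% higher of all genes. *Myc* was at 26.5, 36.5 and 20.6 CPM in Dmp1-Cre;Setd2fl/fl and 16.0, 18.4 and 21.5 CPM in control libraries. The groups overlapped, and its log2 fold change of 0.58 (adjusted p = 0.647 by edgeR) lay at the threshold itself. The call was lost with the replicate block (0.56), with a stricter filter (0.57), with library sizes without the 100 highest genes (0.57) and without Dmp1-Cre;Setd2fl/fl replicate 1 or 2 or control replicate 1 or 2. *Bmi1*, a Polycomb subunit, had a log2 fold change of 0.24 and the p53-responsive gene *Bax* of 0.13.

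**Figure D4:**
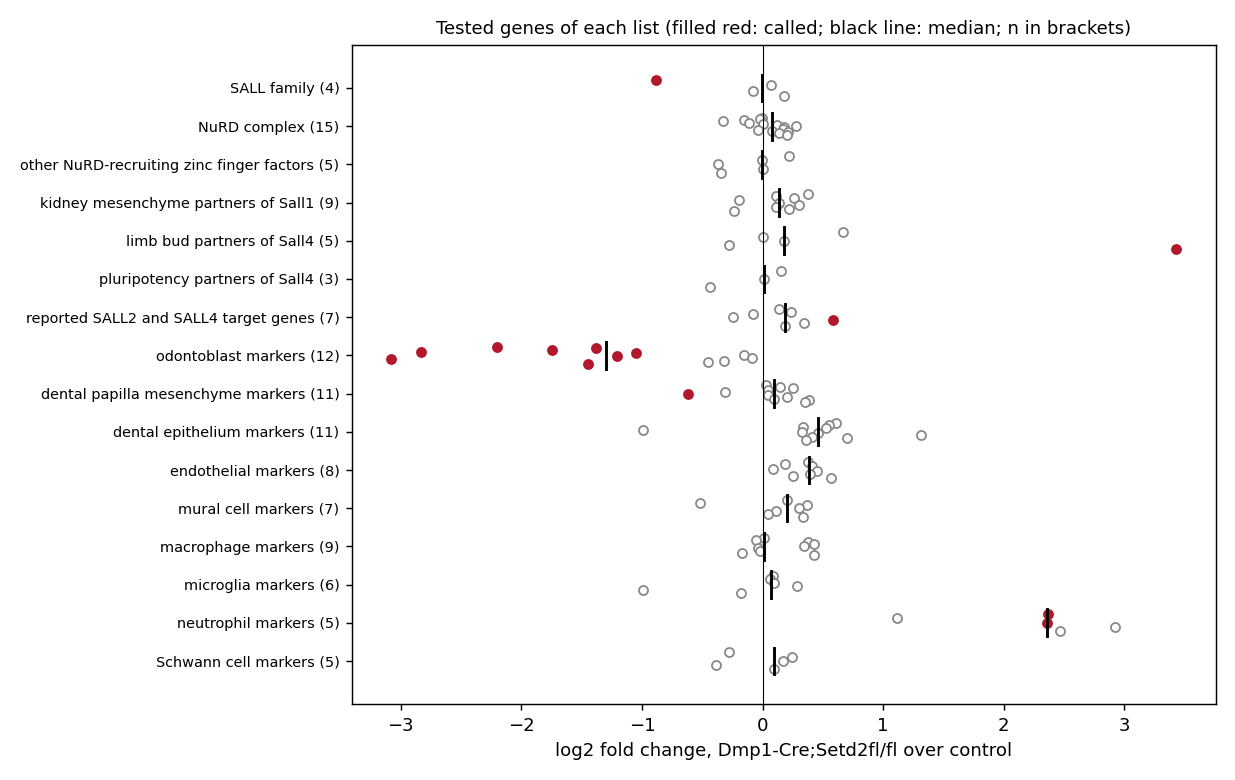
Log2 fold change (horizontal axis, Dmp1-Cre;Setd2fl/fl over control) of each tested gene in each list (rows, with the number of tested genes), with called genes filled and the median as a black line. The odontoblast markers have a median of -1.30 with 8 called lower, while the NuRD complex (median 0.08) and the kidney partners of *Sall1* (median 0.13) have 0 called. Of all genes tested, 2.71% were called lower and 1.1% higher.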

How the data were processed

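RNA-seq counts of 6 mDPC libraries (3 Dmp1-Cre;Setd2fl/fl, 3 control) were analysed. The authors deposited whole-number counts per gene, made with HISAT2 and HTSeq without regard to strand, and reads of low mapping quality were left out, which lowers counts of genes with near-identical copies. Bowtie2, DESeq2 and GRCm39 are further named in the submitters' processing notes. Gene positions in the table fit GRCm38 instead: 74.4% of 24507 genes lay within 1000 bases of RefSeq GRCm38.p6 at both ends, against 2.5% of 30418 for GENCODE vM39. Positions are therefore given as deposited. Further columns hold the authors' own DESeq2 comparison and were not used: p-values, a log2 fold change and the ratio behind it, and a mean signal of normalized counts, all deposited by the authors. No line of the table lacked a gene.

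Counts were tested with edgeR 4.0.16 in R 4.3.3 (filterByExpr, minimum count 10; TMM; robust quasi-likelihood F test; Benjamini-Hochberg over 16519 genes). CPM used TMM-scaled library sizes, and log2 CPM a prior count of 2. Depth was 18557647 to 19210750 counts per library. Exon lengths were the union of GENCODE vM39 exons. Alternatives were RLE scaling, DESeq2 1.42.0, limma 3.58.1 voom with quality weights, other filters, library sizes without the 100 highest genes, a replicate block and leaving out libraries. The code was tested on simulated data. Libraries with the same number deviated together (r of deviations from group means 0.453, 0.465 and 0.663) and the numbers come from the labels, which do not say what they mark.

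The members and all gene lists were chosen with earlier results of these data known. Genes named were the members, up to 4 genes of smallest p in each list, defining markers near 0, the 5 genes most correlated with each member, the overlapping and neighbouring genes, and *Setd2*, except for a few items that are not reported here.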

Additional observations from a re-analysis of the deposited data

How the results depend on the processing

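Across 14 alternatives for each member, *Sall1* was lower in all and kept its call in 11. Leaving out single libraries gave it log2 fold changes from -1.29 to -0.685. With the replicate number as a block, its log2 fold change was -0.95 (adjusted p = 0.0306 by edgeR), and the block changed the call of no other member. Its adjusted p was 0.198 by DESeq2 and 0.00238 by voom with quality weights, and it ranged from 0.000909 to 1 over all alternatives. *Sall2*, *Sall3* and *Sall4* were not called under any of the 14. Counts of genes moved more: 1101 were lower and 444 higher with voom quality weights, 722 lower and 339 higher with the block, 1261 lower and 750 higher without replicate 3 of both groups, and 338 higher with no filter on low counts. Leaving out single libraries gave 282 to 1161 lower and 83 to 677 higher genes. The causes were not tested. The difference in the *Sall1* to *Sall2* log2 ratio ranged from -1.35 to -0.752 without single libraries, but 3 libraries a group cannot reach a p under 0.1. Dmp1-Cre;Setd2fl/fl replicate 1 correlated as well with control replicate 2 (0.455) as with control replicate 1 (0.453). Depth limits *Sall4*, with 19 to 32 counts per library.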
